A study of Mus musculus with 2 samples.

Results

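A set of 10 solute carrier genes of the proximal tubule, the first part of the nephron, was followed in single cells of an injured and a normal mouse kidney. The genes were given as a list by name, and all 10 of 10 were among the 15169 genes of the deposited table. They are the sugar carrier Slc5a2, the monocarboxylate carriers Slc5a8 and Slc5a12, the phosphate carrier Slc34a1, the sulfate carrier Slc13a1, the dicarboxylate carrier Slc13a3, and the amino acid transport genes Slc6a19, Slc7a7, Slc7a13 and Slc3a1. The label of sodium-coupled transport does not hold for all of them. Slc7a7 exchanges a cationic amino acid for a neutral one together with sodium, Slc7a13 is an exchanger that does not need sodium, and Slc3a1 is a heavy chain that brings light chains, among them Slc7a9, to the membrane.

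The proximal tubule takes filtered solute back from the urine, and many of its apical carriers are driven by the sodium gradient that the basolateral sodium pump keeps up. Its cells change along its length. S1, the first segment, is rich in high-capacity carriers for glucose and neutral amino acids, and S3, the last, holds carriers that recover what is left. S3 runs into the outer medulla and is known as a segment easily hurt when blood flow stops.

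The IRI library came from a wild-type C57BL/6 mouse kidney, at 9 weeks, after unilateral ischaemia and reperfusion with the kidney of the other side removed. The control library came from a wild-type C57BL/6 kidney of the same age that the labels call normal, with no nephrectomy named. No time after injury is given, the preparation text of both libraries speaks of injured kidneys, and both were made into cell suspensions with Liberase and DNase. There was 1 library per group and nothing says how many animals it holds, so injury, nephrectomy and animal cannot be told apart and no test between conditions was possible.

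The IRI library held 5170 cells with 16816996 UMIs (unique molecular identifiers, which count captured RNA molecules), and the control library held 6589 cells with 24169073 UMIs. Median depth was 1888.5 UMIs per cell in IRI and 2344 in control, and 55 cell barcodes occurred in both libraries. The 18 cell types, among them the segments PT-S1, PT-S2 and PT-S3, and the 29 clusters are the authors' own. Since those names came from clustering these cells, which may have used the 10 genes, levels by segment are a description. Levels are UMIs per 10000 UMIs of all genes, worked out for 9 members from deposited residuals; Slc3a1 has only the deposited corrected count, a count adjusted for depth. Ranges in parentheses are 95% exact intervals and reflect counting error alone. A gene is said to have risen or fallen where the mean corrected count, with 0.05 added, differed at least 2-fold.

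The names PT-S1 and PT-S3 were checked against general proximal tubule and S3 markers outside the list. Values of S1 markers and of markers in PT-S2 are not given here. The 5 general proximal tubule markers summed to 15.3 corrected counts per cell in IRI PT-S1 and 17.5 in control PT-S1, and to 11.4 in IRI PT-S3 and 11.9 in control PT-S3. The 5 S3 markers (Cyp7b1, Slc22a13, Slc22a7, Slc27a2 and Acy3) summed to 3.67 in IRI PT-S3 and 8.1 in control PT-S3, against 2.24 in IRI PT-S1 and 2.0 in control PT-S1. The S3 name thus rested on a smaller marker excess in IRI. The 6 injury markers summed to 14.3 in IRI PT-S3 and 0.0895 in control PT-S3, where 4 of them were at 0. Their part in the differences below was not tested.

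In the control library the members separated by segment. Slc5a2, Slc5a12, Slc6a19 and Slc7a7 were highest of the 3 segments in PT-S1, Slc5a8, Slc7a13, Slc13a3 and Slc3a1 were highest in PT-S3, and Slc34a1 and Slc13a1 differed less between PT-S1 and PT-S3. The plot of levels by segment shows both libraries.

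**Figure D1:**
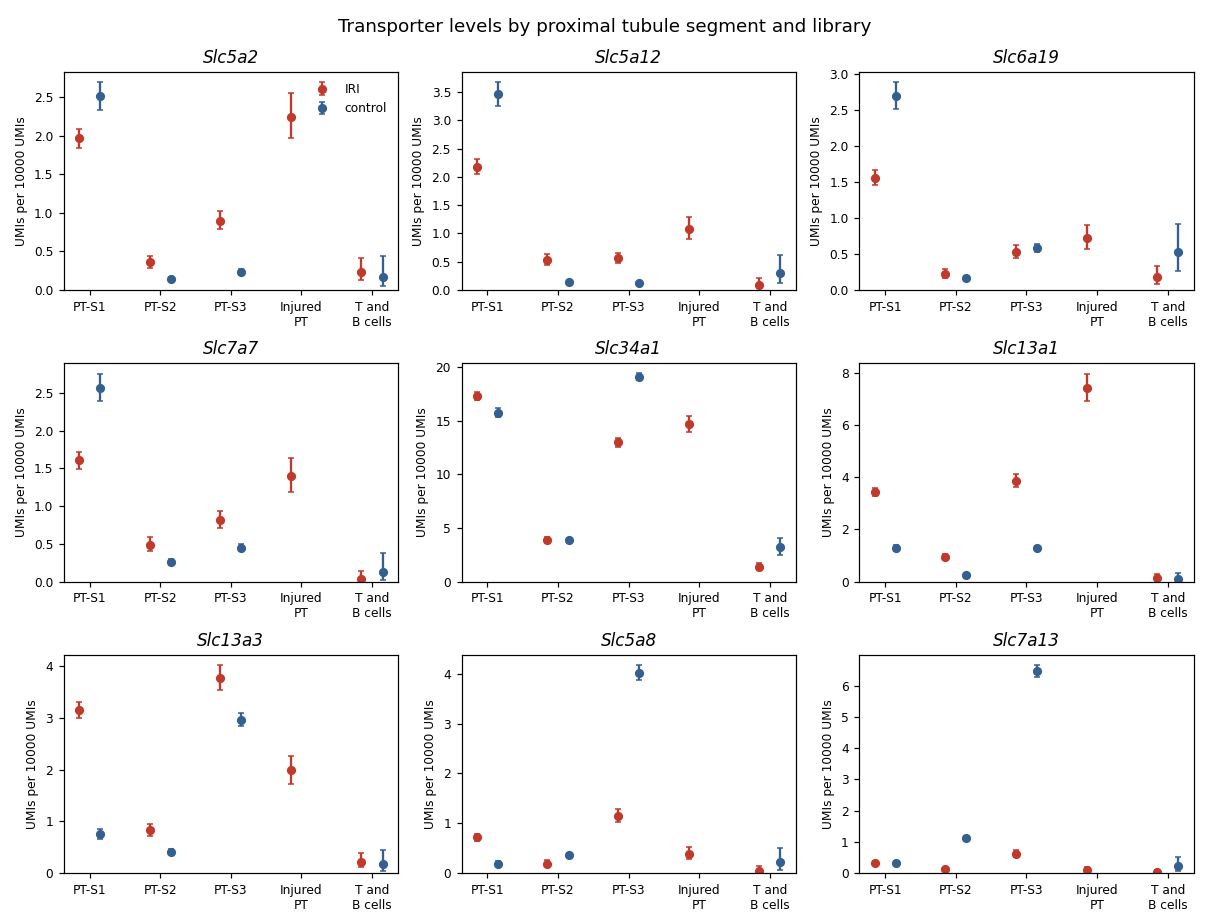
UMIs per 10000 UMIs of 9 transporters in the 3 segments, in injured proximal tubule (IRI only) and in T and B cells, for the IRI and the control library; points are pooled values of a library and bars exact 95% counting intervals. Slc7a13 stands at 0.62 in IRI PT-S3 and 6.48 in control PT-S3, and Slc13a1 is highest in injured proximal tubule at 7.43.

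Slc5a2 encodes SGLT2, the low-affinity glucose carrier of the early tubule. It had 1.97 UMIs per 10000 in IRI PT-S1 and 2.51 in control PT-S1, and 0.899 in IRI PT-S3 and 0.23 in control PT-S3. Its ratio of PT-S1 over PT-S3 was 2.19 (1.89 to 2.53) in IRI and 10.9 (9.23 to 12.9) in control cells. Slc5a12, the low-affinity lactate carrier, showed the same pattern. It had 2.18 UMIs per 10000 in IRI PT-S1 and 3.46 in control PT-S1, and 0.562 in IRI PT-S3 and 0.119 in control PT-S3. Its PT-S1 over PT-S3 ratio was 3.87 (3.25 to 4.63) in IRI and 29 (23.4 to 36.4) in control cells. In control T and B cells Slc5a2 had 0.174 (0.0473 to 0.445) UMIs per 10000 and Slc5a12 had 0.304 (0.122 to 0.626). The control PT-S3 level lay within that interval for Slc5a2 and below it for Slc5a12. Both control ratios thus divide by a level not above that of T and B cells.

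Slc6a19, the main apical carrier of neutral amino acids, had 1.56 UMIs per 10000 in IRI PT-S1 and 2.69 in control PT-S1, and 0.531 in IRI PT-S3 and 0.577 in control PT-S3. Slc7a7, part of the basolateral exit route for cationic amino acids, had 1.6 UMIs per 10000 in IRI PT-S1 and 2.57 in control PT-S1, and 0.81 in IRI PT-S3 and 0.447 in control PT-S3. Both leaned to PT-S1 in both libraries. The PT-S1 over PT-S3 ratio of Slc6a19 was 2.93 (2.44 to 3.54) in IRI and 4.67 (4.15 to 5.26) in control cells, and that of Slc7a7 was 1.98 (1.7 to 2.32) in IRI and 5.74 (5.05 to 6.54) in control cells. The control PT-S3 level of Slc6a19 lay within its control T and B cell interval, at 0.521 (0.269 to 0.91).

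At the late end, Slc5a8, the high-affinity monocarboxylate carrier, had 1.14 UMIs per 10000 in IRI PT-S3 and 4.03 in control PT-S3, but 0.715 in IRI PT-S1 and 0.185 in control PT-S1. Its PT-S3 over PT-S1 ratio was 1.6 (1.37 to 1.87) in IRI and 21.7 (16.7 to 28.8) in control cells. Slc7a13, an exchanger of acidic amino acids and cystine, had 0.62 UMIs per 10000 in IRI PT-S3 and 6.48 in control PT-S3, and 0.337 in IRI PT-S1 and 0.331 in control PT-S1. Its PT-S3 over PT-S1 ratio was 1.84 (1.48 to 2.3) in IRI and 19.6 (16.1 to 24.1) in control cells. In control T and B cells Slc5a8 and Slc7a13 each had 0.217 (0.0705 to 0.507) UMIs per 10000. The control PT-S1 levels of both genes lay within that interval.

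Slc13a3, which takes up dicarboxylates from the blood side, had 3.77 UMIs per 10000 in IRI PT-S3 and 2.96 in control PT-S3, and 3.14 in IRI PT-S1 and 0.747 in control PT-S1. In IRI cells it was near even between the segments, with a PT-S1 over PT-S3 ratio of 0.833 (0.769 to 0.903), against 0.252 (0.219 to 0.289) in control cells. Slc3a1 averaged 0.201 corrected counts per cell in IRI PT-S3 and 0.37 in control PT-S3, and 0.116 in IRI PT-S1 and 0.112 in control PT-S1.

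The promoters of Slc5a8 and Slc3a1 are shown as a window without and a window with a TATA motif, both of genes highest in control PT-S3; Slc13a3, also highest there, has a window with 0 matches that is not printed. RefSeq windows (GRCm38.p6, a later build than mm9, matched by gene symbol) were found for 6 of the 10 members. Both lines give the 250 bases before the start on the plus strand, chr10:88885742-88885991 for Slc5a8 and chr17:85028097-85028346 for Slc3a1. Capitals mark TATAAA, the core of the TATA box, on either strand.
Slc5a8: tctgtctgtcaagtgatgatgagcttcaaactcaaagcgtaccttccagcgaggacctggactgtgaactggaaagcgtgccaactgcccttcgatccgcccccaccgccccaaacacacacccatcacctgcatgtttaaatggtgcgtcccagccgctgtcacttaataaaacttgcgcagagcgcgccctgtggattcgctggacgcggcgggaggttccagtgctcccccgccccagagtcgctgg
Slc3a1: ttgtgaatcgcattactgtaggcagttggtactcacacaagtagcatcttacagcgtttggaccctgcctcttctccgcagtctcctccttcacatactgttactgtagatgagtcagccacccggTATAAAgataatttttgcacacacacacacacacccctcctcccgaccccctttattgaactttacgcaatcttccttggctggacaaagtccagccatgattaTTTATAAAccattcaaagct
The Slc3a1 window holds 3 matches, which begin 124, 20 and 18 bases before the start, the last 2 of them overlapping on opposite strands, and the Slc5a8 window holds 0. Of the 6 members with a window, 1 holds the motif. TATAAA occurs in 12.3% of 32536 promoter windows of this length. A match is a description of the letters and says nothing of binding.

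Slc34a1, the phosphate carrier NaPi-IIa, had 17.3 UMIs per 10000 in IRI PT-S1 and 15.8 in control PT-S1, with a log2 ratio of -0.09 in corrected counts. It had 13 in IRI PT-S3 and 19.1 in control PT-S3, a UMI ratio of 0.679 (0.654 to 0.705), and within cluster 3 the ratio was 0.876 (0.798 to 0.963). Its corrected counts differ from UMIs in 1672 cells that have a corrected count above 0 and no UMI. Outside the tubule it fell in T cells, with 0.144 in IRI and 0.593 in control corrected counts (log2 -1.73), as did Slc6a19 (log2 -1.06), where 3.37% of genes fell. The Slc6a19 value rested on 3 summed corrected counts in 97 IRI T cells and 7 in 59 control T cells. The shares of cells above 0 were 3.09% (0.642 to 8.77) in IRI and 8.5% (2.81 to 18.7) in control, with overlapping intervals. The 5 proximal tubule markers in T cells summed to 0.763 in IRI and 1.66 in control.

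The ratio of the first over the last segment was nearer 1 in IRI than in control for 7 of 9 members, with intervals that did not overlap. The others were Slc34a1, at 1.33 (1.28 to 1.39) in IRI and 0.825 (0.798 to 0.852) in control cells, and Slc13a1, at 0.886 (0.82 to 0.959) in IRI and 0.993 (0.88 to 1.12) in control cells. No share of all genes stands beside the count of 7 of 9, since UMIs were worked out for 9 genes only. In control, the lower segment level lay within or below the T and B cell interval for Slc5a2, Slc5a12, Slc6a19, Slc5a8 and Slc7a13. The 2 libraries fill different clusters of these segments. Between cluster 5 of PT-S1 and cluster 3 of PT-S3, which both libraries fill, the ratio of Slc5a2 was 2.72 (2.35 to 3.16) in IRI and 3.26 (2.4 to 4.53) in control. For Slc5a12 the same pair gave 3.64 (3.04 to 4.38) in IRI and 4.12 (2.99 to 5.85) in control. For Slc7a13 it gave 1.09 (0.854 to 1.4) in IRI and 0.622 (0.385 to 1.04) in control. Between this pair of clusters the intervals of IRI and control overlapped for 5 of 9 members, Slc34a1, Slc5a12, Slc5a2, Slc7a13 and Slc7a7, and not for Slc13a1, Slc13a3, Slc5a8 and Slc6a19. Control cluster 3 held only 127 cells, which widens its intervals, and no share of all genes stands beside this count.

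**Figure D2:**
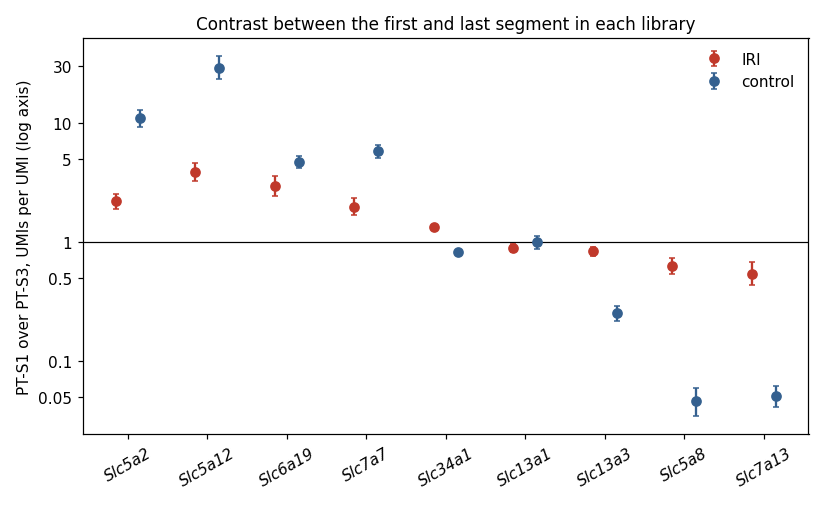
Ratio of PT-S1 over PT-S3 in UMIs per UMI for 9 transporters, on a log axis, in the IRI and the control library, with exact 95% counting intervals. The IRI ratios run from 0.543 for Slc7a13 to 3.87 for Slc5a12, and the control ratios from 0.046 for Slc5a8 to 29 for Slc5a12.

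PT-S2 cells were shallow, with a median of 912 UMIs in IRI and 1495 in control, and many members were low there. T and B cells, which are not known to use most of these carriers, were taken as a background level, whose source was not tested. Some of their UMIs came several to a cell. In control T and B cells 7 Slc5a12 UMIs lay in 3 of 86 cells and 12 Slc6a19 UMIs in 6, while 5 Slc7a13 UMIs lay in 5. The counting intervals do not cover such clumping. Slc34a1 had 3.87 UMIs per 10000 in IRI PT-S2 and 3.92 in control PT-S2, and 1.38 in IRI T and B cells and 3.21 in control T and B cells. In the IRI library PT-S2 stood above T and B cells for 7 of 9 members, for example with a ratio of 2.8 (2.21 to 3.59) for Slc34a1, and the intervals of Slc5a2 and Slc6a19 included 1. In the control library the interval included 1 for 7 of 9 members, among them Slc34a1 at 1.22 (0.97 to 1.56). The exceptions there were Slc7a13, at 5.15 (2.2 to 15.9), and Slc6a19, at 0.317 (0.176 to 0.627). These counts hold for the pooled segment and not for each of its clusters, and no share of all genes stands beside them. In control cluster 0, with 391 of the control PT-S2 cells, Slc5a12 had 1.38 (1.05 to 1.79) UMIs per 10000 beside 0.304 (0.122 to 0.626) in control T and B cells, and Slc7a7 had 1.48 (1.13 to 1.9) beside 0.13 (0.0269 to 0.381).

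Over all PT-S1 to PT-S3 cells (3261 in IRI and 4827 in control), 1 of the 10 members rose and 2 fell. Of 11944 measured genes 0.41% rose and 0.762% fell. Slc13a1 rose, with a mean corrected count of 0.496 in IRI and 0.14 in control (log2 ratio 1.52). Slc5a8 fell, with 0.105 in IRI and 0.302 in control (log2 -1.18), and Slc7a13 fell, with 0.0485 in IRI and 0.543 in control (log2 -2.59). The median log2 ratio of the 10 was 0.25, beside -0.01 for all genes.

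The pooled value mixes segments in different shares, since PT-S1 held 989 of the IRI cells and 600 of the control cells. Slc5a12 had a pooled log2 ratio of 0.67, and -0.20 with equal weight for the 3 segments. Slc5a2 had 0.61 pooled and -0.11 with equal weight. The pooled values of Slc13a1, Slc5a8 and Slc7a13 kept their directions, at 1.28, -1.10 and -2.48 with equal weight.

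**Figure D3:**
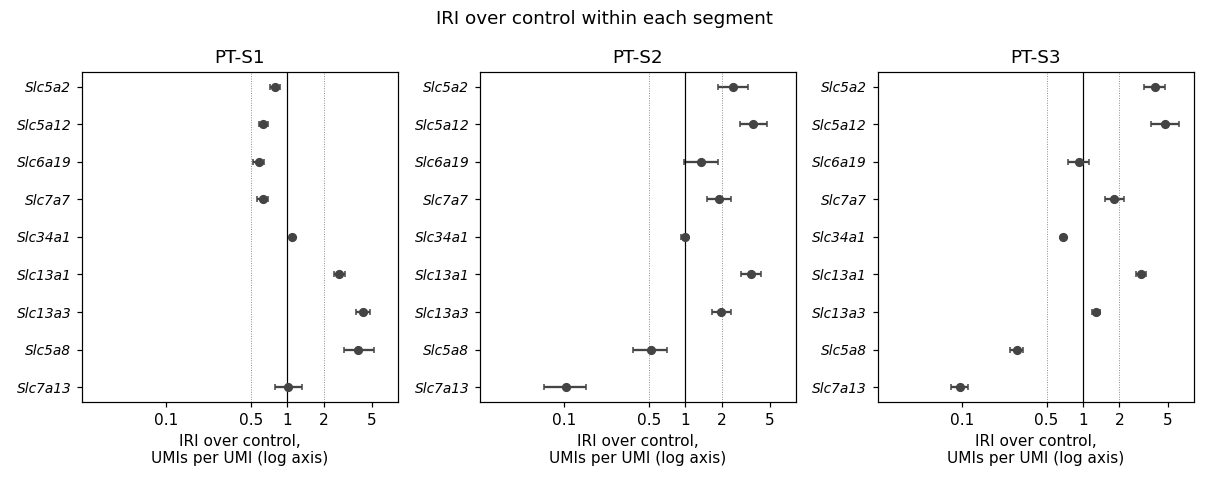
Ratio of IRI over control in UMIs per UMI for 9 transporters within each segment, on a log axis, with exact 95% counting intervals; the dotted lines mark 2-fold. Slc13a1 lies right of the upper 2-fold line in all 3 segments, at 2.69, 3.5 and 3.01, while Slc7a13 lies, in PT-S1, PT-S2 and PT-S3, at 1.02, 0.105 and 0.0958.

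Slc13a1 encodes NaS1, which recovers sulfate from the urine, and it rose in every segment. It had 3.43 UMIs per 10000 in IRI PT-S1 and 1.28 in control PT-S1, 0.939 in IRI PT-S2 and 0.268 in control PT-S2, and 3.87 in IRI PT-S3 and 1.28 in control PT-S3. Log2 ratios of corrected counts were 1.17, 1.23 and 1.40 in PT-S1, PT-S2 and PT-S3, where 0.675%, 0.234% and 1.09% of all genes rose. A Slc13a1 UMI was found in 47.7% of IRI PT-S3 cells and 38.6% of control PT-S3 cells, at median depths of 2338.5 and 4507.5 UMIs. At an equal 500 UMIs per cell these shares were 14.7% in IRI and 5.48% in control. In T and B cells, at median depths of 2399 and 2252 UMIs, the shares at 500 UMIs were 0.566% in IRI and 0.548% in control.

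Within single clusters Slc13a1 rose in 5 of the 8 clusters of the segments with at least 20 cells of each library. The UMI ratio was 2.05 (1.82 to 2.32) in cluster 5 and 3.81 (2.74 to 5.39) in cluster 6 of PT-S1. It was 3.24 (1.89 to 5.96) in cluster 0 and 2.86 (1.13 to 6.03) in cluster 1 of PT-S2, the second with 25 IRI cells, and 3.23 (2.38 to 4.5) in cluster 3 of PT-S3. Of all genes, 0.836%, 0.73%, 0.29%, 4.06% and 1.31% rose in clusters 5, 6, 0, 1 and 3. In cluster 12 of PT-S2 and cluster 4 of PT-S3 the ratios were 1.3 (0.692 to 2.71) and 1.44 (0.791 to 2.42), with intervals that included 1.

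**Figure D4:**
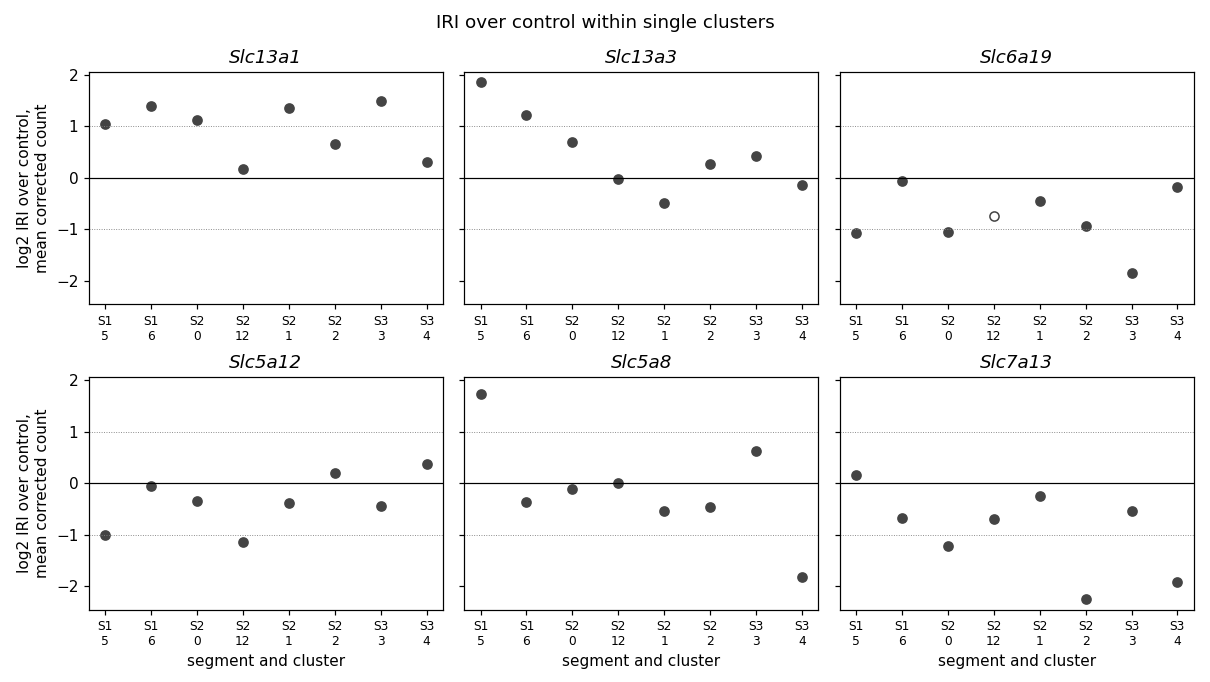
Log2 ratio of the mean corrected count, with 0.05 added, of IRI cells over control cells within 8 single clusters of PT-S1 (5 and 6), PT-S2 (0, 12, 1 and 2) and PT-S3 (3 and 4), for 6 transporters; an open circle marks a gene with fewer than 10 summed counts, and dotted lines mark 2-fold. Slc13a1 lies above 0 in all 8 clusters, from 0.18 to 1.49, while Slc5a8 runs from -1.82 in cluster 4 to 1.73 in cluster 5.

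In PT-S1 (989 IRI and 600 control cells) 3 members rose and 0 fell, beside 0.675% and 0.424% of 10367 genes. Slc13a3 rose, with a mean corrected count of 0.643 in IRI and 0.155 in control (log2 1.76) and a UMI ratio of 4.21 (3.66 to 4.86). It rose in both large clusters of the segment, with UMI ratios of 3.41 (2.93 to 3.98) in cluster 5 and 4.42 (2.85 to 7.13) in cluster 6. Slc5a8 rose over the segment, with 0.134 in IRI and 0.0333 in control (log2 1.14). Its control level of 0.185 UMIs per 10000 lay within the control T and B cell interval (0.0705 to 0.507). Its UMI ratio was 4.87 (3.4 to 7.18) in cluster 5, where it rose, and 0.307 (0.117 to 0.728) in cluster 6. Slc7a13, near even over PT-S1, had 0.494 UMIs per 10000 in IRI cluster 5 and 0.431 in control cluster 5. In cluster 6 it had 0.024 (0.00655 to 0.0616) in IRI and 0.227 (0.152 to 0.326) in control, from 4 and 29 UMIs. Both cluster 6 values lay within the T and B cell interval of their library, and corrected counts there were short of the 2-fold limit.

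The early genes did not reach 2-fold over PT-S1. Their log2 ratios were -0.48 for Slc5a2, -0.60 for Slc5a12, -0.78 for Slc6a19 and -0.62 for Slc7a7. In cluster 5 Slc6a19 fell, with a UMI ratio of 0.434 (0.39 to 0.483), and 1.41% of all genes fell there. Slc5a12 had a ratio of 0.463 (0.417 to 0.514) in cluster 5 and 0.983 (0.841 to 1.15) in cluster 6, both short of the 2-fold limit on corrected counts. For Slc6a19 cluster 6 gave 0.887 (0.676 to 1.17).

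Slc6a19 also fell in a cluster of each later segment. In cluster 0 of PT-S2 it had 0.459 UMIs per 10000 in IRI cluster 0 and 1.21 in control cluster 0, a ratio of 0.379 (0.25 to 0.575). In cluster 3 of PT-S3 it had 0.542 UMIs per 10000 in IRI cluster 3 and 2.4 in control cluster 3, a ratio of 0.226 (0.17 to 0.301). Of all genes, 0.343% fell in cluster 0 and 0.898% in cluster 3. Over whole PT-S3 the ratio was 0.921 (0.755 to 1.12); control cluster 8, which holds 455 control cells of that segment, had 0.683 UMIs per 10000.

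In PT-S2 (1482 IRI and 2785 control cells) 1 member rose and 1 fell. Slc13a1 was the one that rose. Slc7a13 fell, with 0.117 UMIs per 10000 in IRI and 1.12 in control (log2 of corrected counts -1.98), and 0.996% of 10236 genes fell. Slc7a13 also fell in cluster 0, at 0.0752 (0.0188 to 0.223), and in cluster 2, where 0 UMIs were found in 72 IRI cells and 2.89% of genes fell. It did not reach 2-fold in cluster 12, at 0.525 (0.181 to 1.85), or in cluster 1, at 0.728 (0.313 to 1.44), which held 25 IRI cells and 755 of the 988 Slc7a13 UMIs of control PT-S2. In cluster 12 Slc5a12 fell, at 0.159 (0.0606 to 0.413), where 1.47% of genes fell, and in cluster 1 Slc3a1 fell, where 5.43% did. That Slc3a1 value came from 0 corrected counts in 25 IRI cells and a mean of 0.0616 in control cells. The shares of cells above 0 were 0% (0 to 13.7) in IRI and 6.16% (4.9 to 7.6) in control, with overlapping intervals.

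In PT-S3 (790 IRI and 1442 control cells) 3 members rose and 2 fell, beside 1.09% and 2.34% of 10194 genes. Slc5a2 and Slc5a12 rose with Slc13a1, at log2 1.07 and 1.22, with UMI ratios of 3.91 (3.2 to 4.79) and 4.72 (3.61 to 6.21). Control PT-S3 had 0.23 Slc5a2 UMIs per 10000, within the control T and B cell interval (0.0473 to 0.445). It had 0.119 for Slc5a12, below that interval (0.122 to 0.626). These 2 rises are thus taken over a control level not above T and B cells. Slc5a8 fell at log2 -1.84, a UMI ratio of 0.284 (0.251 to 0.32). Slc7a13 fell at log2 -3.19, a UMI ratio of 0.0958 (0.0813 to 0.112). Its background in T and B cells was 0.0185 UMIs per 10000 in IRI and 0.217 in control, from 1 UMI and 5 UMIs; its part in the fall was not tested. The ratio of PT-S3 over that background was 33.6 (5.95 to 1336) in IRI and 29.8 (12.8 to 92) in control. Slc34a1 and Slc3a1 stayed within 2-fold, at log2 -0.71 and -0.74.

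These PT-S3 values join cells of different clusters. Cluster 3 held 727 of the IRI cells and 127 of the control cells, while cluster 8 held 4 IRI and 455 control cells and cluster 21 held 1 IRI cell and 118 control cells. Within cluster 3 the early genes pointed the other way: Slc5a2 had 0.94 UMIs per 10000 in IRI cluster 3 and 1.27 in control cluster 3, and Slc5a12 had 0.591 in IRI cluster 3 and 1.13 in control cluster 3, log2 ratios of -0.43 and -0.45. Slc5a8 had 1.09 in IRI cluster 3 and 0.549 in control cluster 3, and Slc7a13 had 0.452 in IRI cluster 3 and 0.693 in control cluster 3, a ratio of 0.651 (0.416 to 1.06). In cluster 4, with 58 IRI and 742 control cells, Slc7a13 fell, with 1.35 UMIs per 10000 in IRI cluster 4 and 4.6 in control cluster 4. Slc5a8 fell there too, with 1.16 in IRI cluster 4 and 2.79 in control cluster 4, as did Slc3a1, at log2 -1.03. In cluster 4, 7.49% of genes fell.

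Detection in single cells differed as well. Among PT-S3 cells with at least 2000 UMIs (440 in IRI and 1072 in control), a late gene (Slc5a8 or Slc7a13) without an early one (Slc5a2 or Slc5a12) was found in 29.5% (25.3 to 34) of IRI cells and 75.6% (72.9 to 78.1) of control cells. The reverse, an early gene without a late one, was found in 21.4% (17.6 to 25.5) of IRI cells and 3.64% (2.6 to 4.94) of control cells. Neither kind was found in 39.3% (34.7 to 44.1) of IRI cells and 9.7% (8.0 to 11.6) of control cells. Median depth of these cells was 4140.5 UMIs in IRI and 6194.5 in control. Within cluster 3 the early-only share was 22.4% (18.5 to 26.7) in IRI and 33.3% (23.1 to 44.9) in control, and the late-only share was 28.8% (24.5 to 33.4) in IRI and 24.4% (15.3 to 35.4) in control, with overlapping intervals for both shares. In T and B cells of that depth, with medians of 2913 and 2704.5 UMIs, the late-only share was 0.781% (0.0198 to 4.28) in IRI and 8.62% (2.86 to 19) in control, and the early-only share was 6.25% (2.74 to 11.9) in IRI and 5.17% (1.08 to 14.4) in control.

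Cluster 21 of PT-S3, with 1 IRI cell, had the highest Slc7a13 and Slc5a8 levels of any cluster of at least 20 cells in its 118 control cells. Slc7a13 had 13.4 UMIs per 10000 in control cluster 21 and 5.95 in control cluster 8, a ratio of 2.25 (2.11 to 2.4). Slc5a8 had 9.32 UMIs per 10000 in control cluster 21 and 3.4 in control cluster 8, a ratio of 2.74 (2.52 to 2.97). Slc34a1 had 2.06 UMIs per 10000 in control cluster 21 and 26.4 in control cluster 8, and Slc13a3 had 0.40 UMIs per 10000 in control cluster 21 and 3.71 in control cluster 8. Late genes thus did not share 1 pattern within control PT-S3: Slc13a3 was low where Slc7a13 was highest. Slc3a1 went with Slc7a13, at 0.924 corrected counts in control cluster 21 and 0.387 in control cluster 8.

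Injured proximal tubule, 135 cells of the IRI library, held several of the carriers. Slc13a1 had 7.43 UMIs per 10000 (6.92 to 7.96), the highest of any type, 2.17 (1.99 to 2.36) times IRI PT-S1. Slc5a2 had 2.25, a ratio over IRI PT-S1 of 1.14 (0.989 to 1.32), and Slc34a1 had 14.7, a ratio of 0.847 (0.803 to 0.894). Slc5a12, Slc6a19 and Slc5a8 stood at 0.497, 0.463 and 0.543 times the IRI PT-S1 level. Slc7a13 had 0.102 UMIs per 10000, 0.302 (0.148 to 0.554) times IRI PT-S1. The 6 injury markers summed to 40.6 corrected counts in these cells. Proliferating proximal tubule had 0 Slc7a13 UMIs in its 155 IRI cells, at a median depth of 1544 UMIs; 3 counts in 155 cells would be a share of 1.94%, and the exact upper limit is 2.35%.

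Among other epithelia, the type named tDL (thin descending limb, which follows S3) carried late genes in the control library. Slc7a13 had 0.0904 UMIs per 10000 in IRI tDL and 3.46 in control tDL, and Slc5a8 had 0.14 in IRI tDL and 2.54 in control tDL. Slc7a13, Slc5a8 and Slc3a1 fell over the type, at log2 -3.40, -2.54 and -1.24, where 6.39% of genes fell. The libraries fill different clusters of it: cluster 11 held 20 IRI and 391 control cells, and cluster 9 held 420 IRI and 36 control cells. Slc3a1 averaged 0.2 corrected counts in IRI cluster 11 and 0.2225 in control cluster 11, and 0.0524 and 0.0556 in cluster 9. In cluster 11 Slc7a13 averaged 0.25 in IRI and 0.757 in control, and Slc5a8 0.1 and 0.478. These IRI values rest on 2 Slc7a13 and 3 Slc5a8 UMIs. Slc7a13 and Slc5a8 both averaged 0 in control cluster 9. The part of the cluster mix in the falls was not tested. In control cluster 11 Slc7a13 had 3.66 UMIs per 10000, 16.9 (7.17 to 52.2) times control T and B cells and 0.566 times control PT-S3. Slc34a1 stood at 0.643 (0.493 to 0.847) times control T and B cells there. The 5 S3 markers summed to 8.15 corrected counts in control cluster 11, from 0.115 for Slc22a13 to 4.85 for Acy3. The 5 thin limb markers summed to 2.12, with Cryab at 1.5, Aqp1 at 0.57, Akr1b3 at 0.046 and both Bst1 and Epha7 at 0.

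Slc7a13 also fell in resident macrophages, DCT/CNT (distal convoluted and connecting tubule) and vasculature, where 3.27%, 4.78% and 4.37% of genes fell, at log2 -1.52, -1.48 and -1.03. In resident macrophages it had 0.0406 UMIs per 10000 in IRI Resid. Mac and 1.5 in control Resid. Mac, against 0.0185 in IRI and 0.217 (0.0705 to 0.507) in control T and B cells. The resident macrophage values came from 2 UMIs in IRI and 24 UMIs in 11 control cells. Control DCT/CNT had 0.415 (0.276 to 0.6), which overlaps control T and B cells, and control vasculature 0.809 (0.55 to 1.15). In IRI each of these 2 types had 1 UMI. The part of background in these falls was not tested.

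Slc7a7, which macrophages are known to use, had 0.328 UMIs per 10000 in IRI Ccr2+ macrophages, 8.88 (2.34 to 75.2) times IRI T and B cells. A UMI was found in 21.2% of these 217 cells and in 1.21% of IRI T and B cells, at median depths of 7177 and 2399 UMIs. In the same macrophages Slc34a1 stood at 0.553 (0.412 to 0.746) times the T and B cell level. In resident macrophages Slc7a7 rose, with 22 UMIs in 306 IRI cells and 0 in 188 control cells, at least 2.38-fold higher when the control group is set to 3 UMIs (the exact lower limit of the ratio is 1.78), where 6.61% of genes rose.

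Related carriers, partners of the members and segment factors were listed as well. Of 64 listed genes, 61 were measured over the pooled tubule, of which 0 rose and 1 fell (all genes 0.41% and 0.762%), with a median log2 ratio of -0.02 beside -0.01 for all genes. The one that fell was Slc9a8, a sodium-proton exchanger, with 0.0261 corrected counts in IRI and 0.132 in control. In PT-S3 6 of 61 fell and 0 rose (all genes 2.34% and 1.09%), with a median of -0.26 beside -0.06 for all genes, and in PT-S1 1 of 60 rose and 0 fell (all genes 0.675% and 0.424%). The one in PT-S1 was Slc6a18, a neutral amino acid carrier named here after its values were seen. It had 0.211 corrected counts in IRI PT-S1 and 0.035 in control PT-S1, and fell in PT-S3, with 0.235 in IRI and 0.616 in control. Of 11 measured partners and scaffolds, 0 fell in PT-S1 and 1 in PT-S3, the FGF23 co-receptor Kl, named after its values were seen, with 0.228 corrected counts in IRI and 0.726 in control, and 0 rose in either. Slc7a9, a light chain of Slc3a1, had log2 ratios of -0.38 in PT-S1 and -0.17 in PT-S3, and Tmem27, the partner of Slc6a19, had -0.03 and -0.01.

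Across the 31 groups of type and library with at least 20 cells, Slc5a2 was most like Slc5a12 (Pearson r 0.942 of log2 mean corrected counts, over groups that share libraries and depth), and next Slc7a7 (0.918). Slc7a7 was most like Slc5a12 (0.938). Slc7a13 was most like Cyp2a4 (0.922), with Slc5a8 among its closest 3 (0.886), and Slc5a8 was most like Atp11a (0.929). Slc13a1 was most like the alkaline phosphatase gene Alpl (0.928), Slc13a3 like the organic anion carrier Slc22a6 (0.921) and Slc6a19 like Slc22a8 (0.888). Slc34a1 was most like Pck1, a gene of gluconeogenesis (0.923), and Slc3a1 like Tmem174 (0.952).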

How the data were processed

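Droplet single-cell RNA libraries of 1 IRI and 1 control kidney were used as deposited. Per the submitters' processing notes, Cell Ranger 3.0.0 and Seurat 3.2 were used with the genome mm9. The main deposited table is a score, not raw counts: its values are whole, but they add up to between 1468 and 3212 in every cell, although the cells held between 271 and 24680 UMIs. They are called corrected counts here. A further deposited score holds residuals of 3000 genes, 9 members among them. The plan had assumed raw counts; UMIs of these 9 genes were worked out from the residuals with a negative binomial model of depth and mitochondrial share. Between 95.4% and 100% of cells came out within 0.1 of a whole number, and the corrected count was recomputed in 97.9% to 99.99% of cells. The annotation was deposited without separators, so that 3615 of 11759 cells allowed several readings of their UMI and gene numbers; the earliest reading giving 200 or more genes was used.

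Members and lists were chosen with earlier results of these data known. Means of corrected counts plus 0.05 were compared between IRI and control within types of at least 20 cells per library, for genes with at least 10 summed counts; 2-fold counts as a rise or fall. UMI levels have exact Poisson, their ratios exact conditional and shares Clopper-Pearson intervals (95%). Shares at 500 UMIs are expected after thinning, without shallower cells. Doublets were not called. Ratios are unscaled; the median of gene ratios was -0.05 (log2) over the pooled tubule, -0.20 in PT-S1, -0.23 in PT-S2, -0.17 in PT-S3, 0.18 in tDL and 0.27 in resident macrophages. Named genes were the 10 members, listed genes past 2-fold in the pooled tubule, and the 3 genes most like each member, given in part. UMI recovery and the ratio step were tested on simulated data. Python 3.11.15 was used with numpy 2.4.6, scipy 1.17.1 and pandas 2.3.3.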

Additional observations from a re-analysis of the deposited data

Results flagged for a closer look

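Slc5a8 moved past 2-fold in opposite directions in the 2 ends of the tubule. Its log2 ratio of IRI over control was 1.14 in PT-S1 and -1.84 in PT-S3. Its control levels in PT-S1 and in clusters 5 and 6 lay within the control T and B cell interval (0.0705 to 0.507). The rise in PT-S1 is thus taken over a level not told apart from T and B cells. Single clusters did not all follow their segment. In PT-S1 it had 1.05 UMIs per 10000 in IRI cluster 5 and 0.216 in control cluster 5, but 0.0481 and 0.1565 in cluster 6. In PT-S3 it had 1.16 in IRI cluster 4 and 2.79 in control cluster 4, but 1.09 and 0.549 in cluster 3. Cluster 3 held 727 of the 790 IRI PT-S3 cells. The difference between the segments was not tested, since each group had 1 library.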

How the results depend on the processing

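No paired analysis was possible because each group had 1 library, and no library could be left out. Shares of all genes are given above at 2-fold under the main settings only. Counts under other settings have no such share beside them and are not a result about the members. The count of members risen in the pooled tubule, 1 as given above, was 0 with a pseudocount of 0.5 or a limit of 3-fold, 2 with UMIs outside mitochondrial genes and 4 at 1.5-fold; the count fallen, 2, was 0 with a pseudocount of 0.5 and 1 with the T and B cell mean subtracted, with UMIs outside mitochondrial genes or at 3-fold. In PT-S1 the 3 risen became 0 with a pseudocount of 0.5 and 1 at 3-fold, and the 0 fallen became 1 within cluster 5 and 3 at 1.5-fold. In PT-S2 the 1 risen became 2 with a pseudocount of 0.01, with median scaling, without mitochondrial, ribosomal protein and haemoglobin genes, with the T and B cell mean subtracted, with UMIs, counted with or without mitochondrial genes, or at 1.5-fold, the second gene being Slc5a12 in each, and 0 with a pseudocount of 0.5, within cluster 2 or 12 or at 3-fold; the 1 fallen became 0 with a pseudocount of 0.5 and 2 within cluster 0. In PT-S3 the 3 risen became 0 with a pseudocount of 0.5, within cluster 4 or at 3-fold and 1 within cluster 3; the 2 fallen became 4 at 1.5-fold, and 1 with a pseudocount of 0.5 or within cluster 3. Smaller changes within clusters or at 1.5-fold were 2 risen in cluster 6 of PT-S1, and in PT-S3 3 fallen in cluster 4 and 4 risen at 1.5-fold. Reversed values within clusters were -0.37 for Slc5a8 in cluster 6 of PT-S1, and in PT-S3 -0.43 for Slc5a2, 0.62 for Slc5a8 and -0.45 for Slc5a12 in cluster 3, and -0.41 for Slc5a2 in cluster 4. The PT-S1 over PT-S3 ratio crossed 1 between clusters 5 and 3 for Slc13a1, Slc13a3 and Slc7a13 in IRI (1.12, 1.13 and 1.09) and for Slc34a1 (1.79) and Slc13a1 (1.76) in control. The unit in UMIs, the leaving out of clusters with fewer than 20 cells of a library and the pair of clusters 5 and 3 were chosen after the data were seen. A larger pseudocount draws scarce genes toward 0; the cause of the other changes was not tested.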
